A study of Rattus norvegicus with 12 samples.

Results

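Transcripts of the mitochondrial carrier family SLC25 were examined in 2 tissues, liver and renal cortex, after oral trichloroethylene (TCE), a chlorinated solvent. The members were all probe sets whose single annotated symbol begins with Slc25a, apart from 1 gene not analysed here, and each gene was represented by its probe set with the highest mean over the 12 arrays. This gave 39 genes of 14217 singly named genes, from 52 of 31099 probe sets: 28 genes had 1 probe set, 9 had 2 and 2 had 3. Male rats of 7 to 9 weeks, labelled F-344 (Wistar-derived), were dosed orally on 3 days with corn oil at 5 ml/kg that held a daily TCE dose of 16 mg/kg, and control rats received the oil alone. About 50 mg of tissue was taken 24 h after the last dose from 3 TCE rats and 3 control rats, giving 3 arrays each of TCE liver, control liver, TCE kidney and control kidney; kidney here means renal cortex. All values are log2 expression as deposited, with a lowest value of 2.17 that many probe sets share.

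SLC25 carriers sit in the inner mitochondrial membrane and exchange nucleotides, phosphate, carboxylates, amino acids, acylcarnitines, cofactors and metals between cytosol and matrix. A few members act elsewhere, such as Slc25a17 in peroxisomes and Slc25a46 at the outer membrane. In liver they feed the urea cycle, gluconeogenesis and fatty acid synthesis, and in the proximal tubule they serve a cortex that depends on oxidative phosphorylation. The family has pairs of close relatives that differ by tissue, among them the ADP/ATP carriers Slc25a4 and Slc25a5 and the aspartate-glutamate carriers Slc25a12 and Slc25a13.

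Sequence upstream of the transcription start is shown for the ADP/ATP carrier pair, because Slc25a4 had the largest tissue difference of the family and Slc25a5 a small one, for the glutamate carrier Slc25a22, the member highest in liver relative to kidney, and for the citrate carrier Slc25a1, which had one of the smallest p-values under TCE. Each line gives the 250 bases before the start in RefSeq's GRCr8 table, 5′ to 3′ on the gene's strand. Capitals mark GC boxes (GGGCGG on either strand) and CCAAT boxes (CCAAT on either strand) that lie whole within these bases. A GC box of Slc25a4 that begins at -3 runs past the start and is not marked. The windows are chr16:52805271-52805520 (+) for Slc25a4, chrX:120897366-120897615 (+) for Slc25a5, chr1:205965878-205966127 (-) for Slc25a22 and chr11:96559804-96560053 (+) for Slc25a1.
Slc25a4: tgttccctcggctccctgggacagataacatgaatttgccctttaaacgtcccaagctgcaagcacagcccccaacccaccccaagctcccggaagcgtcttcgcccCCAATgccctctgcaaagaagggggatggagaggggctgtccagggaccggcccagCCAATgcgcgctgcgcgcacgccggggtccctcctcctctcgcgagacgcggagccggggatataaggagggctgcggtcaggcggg
Slc25a5: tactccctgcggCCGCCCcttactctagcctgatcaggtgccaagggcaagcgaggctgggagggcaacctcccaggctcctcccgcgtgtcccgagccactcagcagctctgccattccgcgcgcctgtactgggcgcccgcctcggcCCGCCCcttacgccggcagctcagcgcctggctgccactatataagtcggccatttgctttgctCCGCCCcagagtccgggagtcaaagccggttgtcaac
Slc25a22: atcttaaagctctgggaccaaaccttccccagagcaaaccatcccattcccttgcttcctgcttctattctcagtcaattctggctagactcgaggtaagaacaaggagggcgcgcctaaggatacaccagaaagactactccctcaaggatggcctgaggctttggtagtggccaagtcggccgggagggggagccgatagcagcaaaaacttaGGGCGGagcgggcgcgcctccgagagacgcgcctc
Slc25a1: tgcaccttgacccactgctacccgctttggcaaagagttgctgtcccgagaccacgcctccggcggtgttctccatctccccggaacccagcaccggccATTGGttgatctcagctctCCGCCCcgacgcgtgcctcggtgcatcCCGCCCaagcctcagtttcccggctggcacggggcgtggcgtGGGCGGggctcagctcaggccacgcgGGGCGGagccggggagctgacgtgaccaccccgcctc

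Of the 39 members, 33 matched an entry of that table by gene ID. Over the full windows of 300 bases (250 before and 50 from the start), GC boxes were found in 25 of 33 members (75.8%) and in 33.1% of all 33469 promoter windows. CCAAT boxes were found in 18 of 33 (54.5%) and in 37.5% of all windows. The members' windows had a median GC content of 60.3%, against 51.7% over all windows. The part of base composition in these shares was not tested. An E-box (CACGTG) was found in 3 of 33 against 6.42% of windows, a match to the NRF1 motif in 1 of 33 against 4.25%, and the D-box of clock output factors (TTATGTAA) in 0 of 33 against 0.893%. These are matches of letters on either strand.

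Arrays of a group correlated at 0.9928 to 0.997 across probe sets and liver with kidney arrays at 0.8502 to 0.8634. The tissues carried their own markers: 6 hepatocyte markers summed to 17.91 to 18.0 log2 units in control livers and 8.16 to 12.9 in control kidneys, and 6 proximal tubule markers to 12.11 to 12.54 and 16.18 to 16.45. In bulk tissue fewer cells of a type and less RNA per cell cannot be told apart. The gap between 3' and 5' Gapdh controls, which widens as RNA degrades, was 1.21, 1.56 and 1.7 log2 units in TCE livers and 0.78, 0.8 and 0.86 in control livers (exact permutation p = 0.1, the smallest that 3 against 3 allows). It was 0.51, 0.59 and 0.87 in TCE kidneys and 0.85, 1.02 and 1.05 in control kidneys (exact p = 0.2). The same gap of Actb overlapped between TCE and control livers (5.09 to 5.67 and 4.31 to 5.24, exact p = 0.3) but not between TCE and control kidneys (4.2 to 4.36 and 4.4 to 4.56, exact p = 0.1). Summed erythroid markers (5 of 8 on the array, Klf1 at the lowest value throughout) lay at 13.42 to 14.01 in TCE and 14.29 to 14.65 in control livers, and summed smooth muscle and stellate markers (6 of 6) at 10.44 to 10.5 and 9.89 to 10.12. Podocyte markers (4 of 5) lay at 10.97 to 11.34 in TCE and 10.56 to 10.76 in control kidneys, and at 6.84 to 7.29 and 6.19 to 6.6 in the livers. Macrophage markers (5 of 6) lay at 7.77 to 8.15 in TCE and 7.55 to 7.72 in control kidneys. The part of these markers in the TCE differences was not tested.

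The largest contrasts in the family were between the tissues. Control livers had far less Slc25a4 and Slc25a36 RNA than control kidneys and far more Slc25a22 and Slc25a32. Dim genes were left out of each comparison by a limit at the 40th percentile of mean probe set level. Of the 39 members 34 were tested here and 5 were left out. Slc25a18, Slc25a31, Slc25a41 and Slc25a53 sat at the lowest value on all 12 arrays and Slc25a27 within 0.1 of it. In limma 26 of the 34 differed at an adjusted p under 0.05, 8 higher in liver and 18 lower, beside 68.6% of all 10654 genes tested (29.7% higher and 38.9% lower). The share of the members (76.5%) is thus near that of all genes. Calls of at least 2-fold were 20 of 34 members (58.8%) and 38.9% of all genes. Among them 14 members (41.2%) were lower in liver, against 22.6% of all genes, and 6 (17.6%) higher, against 16.3%. The lower ones include Slc25a34, which passed the filter through its kidney values alone, and without it they are 13 of 33 (39.4%). Control livers and kidneys did not overlap for 26 of 34, beside 75.7% of all genes. The members' median log2 difference, liver minus kidney, was -0.78, and that of all genes -0.1.

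**Figure D1:**
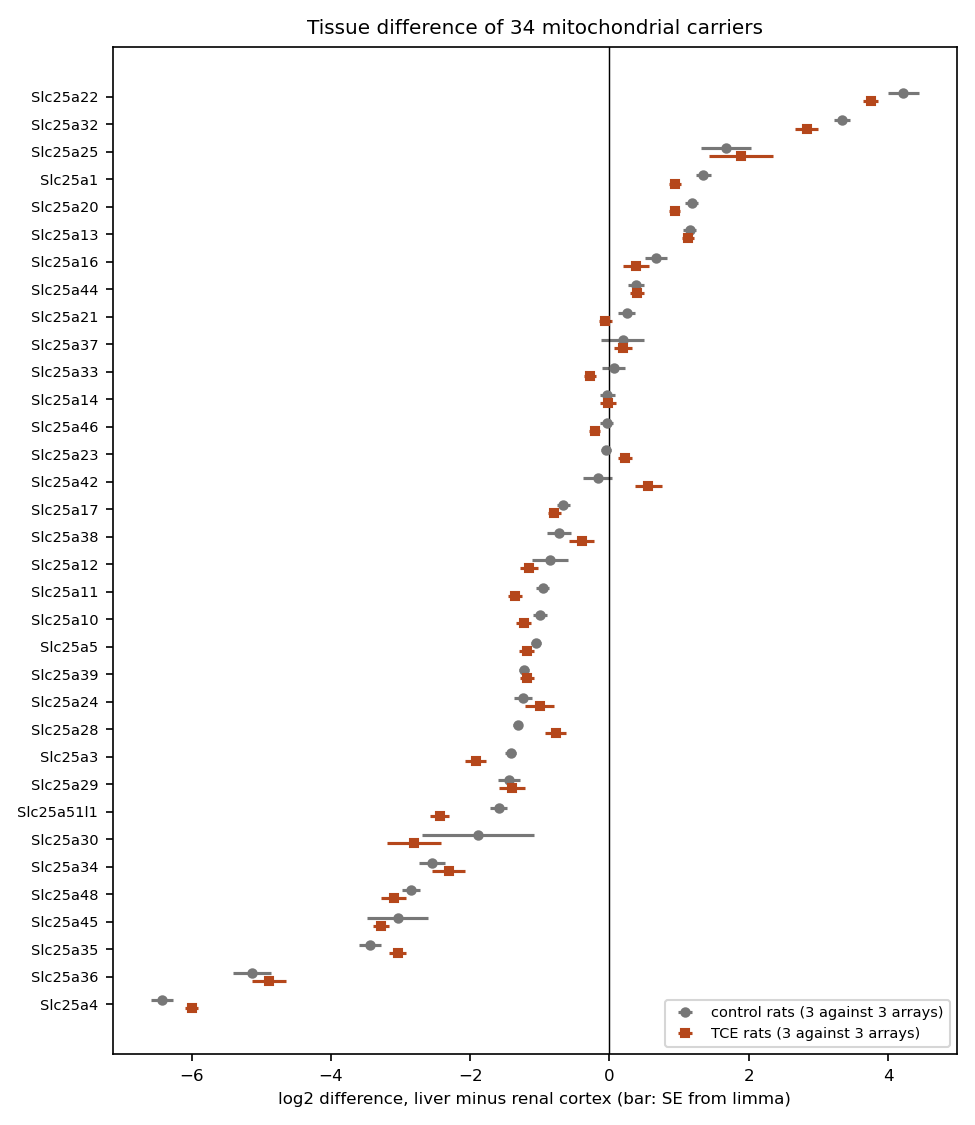
Log2 difference between liver and renal cortex (x axis, liver minus kidney, bars are limma's SE) for the 34 tested carriers, in control rats (grey circles) and TCE rats (red squares), 3 against 3 arrays each. Slc25a4 lies lowest at -6.42 in control rats and Slc25a22 highest at 4.22, Slc25a34 passed the filter through its kidney values alone, and the differences in TCE rats lie within 0.92 of those in control rats.

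The scaling of the arrays matters for this split. Array medians were 3.51 to 3.54 in liver and 3.88 to 3.96 in kidney, and centring each array on its median moved the median of all genes from -0.1 to 0.31. With that centring 13 members were called higher in liver and 16 lower, beside 8072 of 10654 genes called in either direction. Every difference given here is on the deposited scale, and differences smaller than about that shift can change side. Slc25a14, Slc25a23 and Slc25a46, near 0 as deposited, were called higher in control liver after centring (0.37, 0.36 and 0.37). So were Slc25a21 (0.66) and Slc25a33 (0.47), and Slc25a21 also after a repeated quantile normalization (0.48). Centring ended calls of members with small differences, such as Slc25a38.

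Among the carriers of nucleotides, phosphate and coenzyme A, 9 of 12 were tested, and 5 were called lower in liver and 2 higher. Of all genes tested, 38.9% were called lower and 29.7% higher. Slc25a4, the ADP/ATP carrier of heart and muscle type that passes ATP out of the matrix, read 6.61, 6.03 and 6.27 in control livers and 12.83, 12.69 and 12.65 in control kidneys. The groups lie far apart, a log2 difference of -6.42 ± 0.16 (SE) or 85.5-fold lower in liver (limma adjusted p = 7.87e-07). Slc25a5, the ADP/ATP carrier found in most tissues, read 13.25, 13.28 and 13.19 in liver and 14.33, 14.25 and 14.28 in kidney. Its groups were also apart, but by 2.07-fold (-1.05 ± 0.07 SE, limma adjusted p = 3.97e-05). Slc25a3, which imports the phosphate for ATP synthesis, was 2.68-fold lower in liver (-1.42 ± 0.08 SE).

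The ATP-Mg/phosphate carriers, which adjust the matrix pool of adenine nucleotides, did not share a direction. Slc25a25 was 3.18-fold higher in liver (1.67 ± 0.36 SE) with wide spread, at 11.08, 11.61 and 10.58 in control livers and 9.88, 9.56 and 8.83 in control kidneys. Slc25a24 was 2.36-fold lower in liver. Slc25a23 had -0.05 ± 0.07 from its brightest probe set but 2.88 ± 0.43 from a second, so its tissue difference is unsettled. The peroxisomal carrier Slc25a17 was 1.58-fold lower in liver and Slc25a16 1.59-fold higher. Slc25a42, which carries coenzyme A, had -0.17 ± 0.21 and was not called.

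Carboxylate carriers went both ways. The citrate carrier Slc25a1, whose export of citrate supplies cytosolic acetyl-CoA for lipid synthesis, read 11.67, 11.52 and 11.43 in control livers and 10.14, 10.37 and 10.06 in control kidneys. All livers were above all kidneys, by 2.55-fold (1.35 ± 0.11 SE, limma adjusted p = 0.000127). The dicarboxylate carrier Slc25a10 and the oxoglutarate-malate carrier Slc25a11, a part of the malate-aspartate shuttle, were lower in liver by 2.0-fold and 1.94-fold. A second, dimmer probe set of Slc25a10 had 0.31 ± 0.19 and was not called.

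The less characterised members of this group were lower in liver or not called. Slc25a35 read 4.56, 3.99 and 4.29 in control livers and 7.82, 7.67 and 7.66 in control kidneys, a 10.8-fold difference (-3.44 ± 0.16 SE). Slc25a34 read 2.24, 2.49 and 2.22 in control livers, near the lowest value, and 5.22, 4.85 and 4.53 in control kidneys. A difference was thus bound to appear, and no fold is given. The oxoadipate carrier Slc25a21 (0.25 ± 0.12 SE) and the uncoupling-protein relative Slc25a14 (-0.03 ± 0.11) were not called. Both repeat a value of their own, 6.97 on 7 arrays and 6.15 on 5.

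Slc25a30, a relative of the uncoupling proteins first described in kidney, depended on a single array. It read 9.76, 12.44 and 9.47 in control livers and 12.45, 12.25 and 12.62 in control kidneys. Liver control replicate 2 was thus at the kidney level while the other control livers were far below it. The tissue difference was -1.89 ± 0.8 (SE, limma adjusted p = 0.0799), and without that array -2.83 ± 0.16 (adjusted p = 0.000148). A second probe set showed the same array apart, at 3.09, 8.49 and 4.28 in control livers. Proximal tubule markers on liver control replicate 2 summed to 12.54, the highest of the control livers and far below the 16.18 of the lowest control kidney. In TCE rats, whose livers read 9.37, 8.96 and 10.46 and kidneys 12.38, 12.56 and 12.27, Slc25a30 was 7.01-fold lower in liver (-2.81 ± 0.39 SE).

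All 7 tested carriers of amino acids and glutathione were called in control rats, 3 higher in liver and 4 lower, beside 68.6% of all genes. Some of these calls ended under alternatives, as given below. Slc25a22, which brings glutamate into the matrix, read 10.61, 10.8 and 11.12 in control livers and 6.73, 6.9 and 6.24 in control kidneys. That is 18.6-fold higher in liver (4.22 ± 0.22 SE, limma adjusted p = 1.52e-05) with no overlap. The other glutamate carrier, Slc25a18, stayed at the lowest value in both tissues. The aspartate-glutamate carrier Slc25a13 (citrin), which exports aspartate for urea synthesis, read 13.14, 13.03 and 13.18 in liver and 11.8, 12.03 and 12.06 in kidney, 2.22-fold higher in liver (1.15 ± 0.1 SE). A second probe set of Slc25a13 gave a larger difference of 2.11 ± 0.11.

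Its relative Slc25a12 (aralar) went the other way, with 7.38, 8.2 and 8.31 in control livers and 8.98, 8.76 and 8.69 in control kidneys. The groups were just apart, at -0.85 ± 0.26 (limma adjusted p = 0.0299), and this call ended without any 1 of the control kidneys (adjusted p = 0.0955, 0.0729 and 0.0623 without replicates 1, 2 and 3). The branched-chain amino acid carrier Slc25a44 was 1.3-fold higher in liver, and its call also ended without any 1 control kidney (0.0648, 0.0527 and 0.0739). A second, dimmer probe set of Slc25a44 gave 0.74 ± 0.11 (limma adjusted p = 0.00179 over 18625 probe sets). Slc25a29, a carrier of basic amino acids, was 2.71-fold lower in liver, the glutathione carrier Slc25a39 2.34-fold and the glycine carrier Slc25a38, which serves heme synthesis, 1.64-fold. Median centring ended the calls of Slc25a38 (-0.31, adjusted p = 0.146) and Slc25a12 (-0.44, adjusted p = 0.15).

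**Figure D2:**
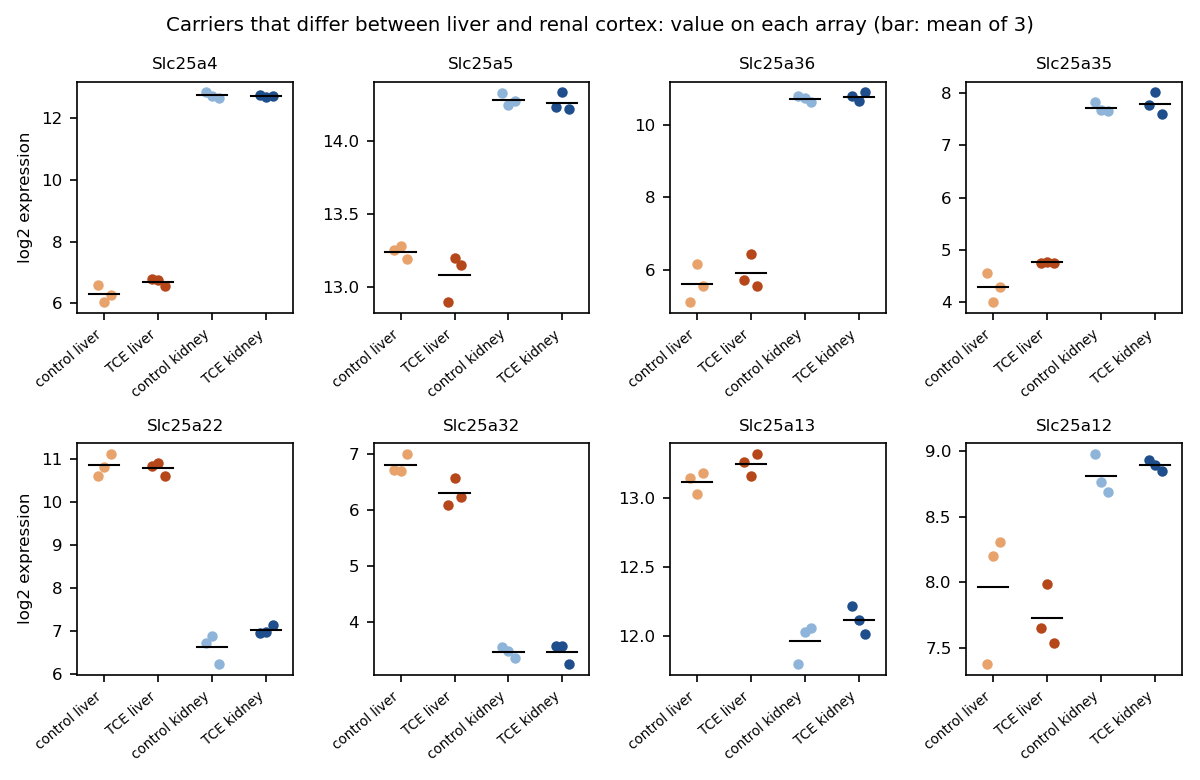
Log2 expression (y axis) on each of the 12 arrays for 8 carriers in control liver, TCE liver, control kidney and TCE kidney (x axis). Points are arrays and bars the mean of 3. Slc25a4 lies between 6.03 and 6.78 in all livers and between 12.65 and 12.83 in all kidneys, and Slc25a13 and Slc25a12 are high in opposite tissues.

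The carnitine-acylcarnitine carrier Slc25a20, which brings fatty acyl groups to beta-oxidation, read 10.37, 10.47 and 10.61 in control livers and 9.26, 9.3 and 9.35 in control kidneys, 2.27-fold higher in liver (1.18 ± 0.09 SE). Slc25a45 and Slc25a48 were lower in liver by 8.22-fold and 7.21-fold. Slc25a45 read 6.12, 6.57 and 7.81 in control livers, with replicate 3 above the others, and 9.62, 10.1 and 9.89 in control kidneys. Slc25a48 was tight, at 7.29, 7.31 and 7.27 in control livers and 10.23, 9.87 and 10.32 in control kidneys. A second, dimmer probe set of Slc25a48 had -0.59 ± 0.26 and was not called.

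Slc25a36, a carrier of pyrimidine nucleotides, had the second largest difference of the family. It read 5.09, 6.16 and 5.55 in control livers and 10.79, 10.75 and 10.64 in control kidneys, 35.0-fold lower in liver (-5.13 ± 0.27 SE). Its second probe set lay near the lowest value in livers, at 2.5 to 2.78, and gave -4.27 ± 0.27 (limma adjusted p = 6.09e-05 over 18625 probe sets). Its close relative Slc25a33, another pyrimidine nucleotide carrier, had 0.06 ± 0.17 and was not called. Slc25a32, which brings folate (and, in some work, FAD) into mitochondria, read 6.71, 6.68 and 7.0 in control livers and 3.56, 3.48 and 3.35 in control kidneys. The kidney values are dim, so the 10.1-fold higher level in liver (3.34 ± 0.12 SE, limma adjusted p = 2.94e-06) is less exact than its SE says. A second probe set of Slc25a32 lay near the lowest value on most arrays. The S-adenosylmethionine carrier Slc25a26 is not among the 39 members.

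The iron importers of the family, the mitoferrins, also differed as a pair. Slc25a28, which serves most tissues, read 8.04, 7.96 and 7.93 in control livers and 9.26, 9.3 and 9.34 in control kidneys, 2.5-fold lower in liver. Slc25a37, the mitoferrin of red cell precursors, had 0.19 ± 0.31 and was not called. The NAD carrier relative Slc25a51l1 read 6.77, 7.01 and 7.18 in control livers and 8.63, 8.54 and 8.55 in control kidneys, 3.0-fold lower in liver.

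The same contrast in the TCE rats used arrays that the control comparison did not. There 27 of 34 members were called, 8 higher in liver and 19 lower, beside 67.6% of 10642 genes (30.8% higher and 36.8% lower). After median centring the split was 13 and 17, beside 8089 of 10642 genes called in either direction. Both contrasts called 24 members, all 24 with the same sign, 2 were called in control rats alone (Slc25a16 and Slc25a38) and 3 in TCE rats alone (Slc25a30, Slc25a33 and Slc25a42). These last names were chosen after their values were seen. The call of Slc25a42 (limma adjusted p = 0.0445) ended without any 1 of the TCE livers (0.0697, 0.111 and 0.115 without replicates 1, 2 and 3) and without TCE kidney replicate 1 (0.122) or 3 (0.128). The call of Slc25a33 (adjusted p = 0.0331) ended without TCE liver replicate 1 (0.0882) or 3 (0.0861) and without TCE kidney replicate 2 (0.0819) or 3 (0.0821). Whether a member was called in 1 contrast alone is not a test of a difference, which the difference of TCE effects gives further on. Slc25a4 was 64.0-fold lower in TCE livers than in TCE kidneys, Slc25a36 29.7-fold lower and Slc25a45 9.68-fold lower, while Slc25a22 was 13.4-fold higher and Slc25a32 7.13-fold higher. Across the 34 members the differences of both contrasts correlated at 0.984 (Pearson, a description across genes measured on shared arrays).

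No member passed the test over all genes between TCE and control livers; the smallest p-values belonged to Slc25a51l1 and the citrate carrier Slc25a1, both with lower values in TCE livers. Of 33 members tested, limma called 0 at an adjusted p under 0.05, as it called 0.0% of 10552 genes. At an unadjusted p under 0.05 there were 8 of 33 (24.2%), beside 14.7% of all genes. Of these, 6 were lower (18.2%, beside 5.84% of all genes) and 2 higher (6.06%, beside 8.81%). Differences below 0 were found for 21 of 33 members and 43.4% of all genes. TCE and control livers did not overlap for 11 of 33 (33.3%), beside 20.5% of all genes. The median log2 difference, TCE minus control, was -0.07 over the members and 0.03 over all genes.

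The citrate carrier Slc25a1 read 11.08, 11.06 and 11.06 in TCE livers and 11.67, 11.52 and 11.43 in control livers. The TCE livers lay within 0.02 of each other and below every control liver, by -0.48 ± 0.08 (SE) or 1.39-fold (limma adjusted p = 0.138, unadjusted p = 0.00142). Over the alternatives this difference ran from -0.53 to -0.41 and the adjusted p from 0.0534 to 0.871. A fit that also held the Gapdh gap gave -0.45 ± 0.22. As that gap was wider in every TCE liver than in any control liver, liver fits with it can barely separate TCE from RNA quality. Slc25a51l1 read 6.29, 6.34 and 6.29 in TCE and 6.77, 7.01 and 7.18 in control livers, a difference of -0.68 ± 0.11 (adjusted p = 0.138), and it is the only member that any alternative called (-0.68, adjusted p = 0.0367, with all 12 arrays in 1 fit).

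Slc25a48 read 6.73, 6.72 and 6.33 in TCE and 7.29, 7.31 and 7.27 in control livers. Every TCE liver was lower, by -0.7 ± 0.13 (limma adjusted p = 0.149). A second probe set had -0.34 ± 0.26. The folate carrier Slc25a32, of interest because the study concerns formate and one-carbon metabolism, read 6.09, 6.57 and 6.23 in TCE and 6.71, 6.68 and 7.0 in control livers. Its groups were apart as well, at -0.5 ± 0.16 (adjusted p = 0.275).

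Higher in TCE livers without passing were Slc25a28 and Slc25a35. Slc25a28 read 8.43, 8.63 and 8.28 in TCE and 8.04, 7.96 and 7.93 in control livers, a difference of 0.47 ± 0.1 (limma adjusted p = 0.191), and 0.21 ± 0.25 once the Gapdh gap was in the fit. Slc25a35 read 4.75, 4.77 and 4.75 in TCE and 4.56, 3.99 and 4.29 in control livers, 0.48 ± 0.15 (adjusted p = 0.276). Its value of 4.75 repeats on 2 arrays, so the spread of the TCE livers may be too narrow. Slc25a24 was also apart, at 0.28 ± 0.14. The Gapdh gap did not overlap between these groups either. With it in the fit 1 of 33 members, Slc25a48 (-1.28 ± 0.17), was at an unadjusted p under 0.05. Over all genes 627 of 10552 were at that p, against 1546 without the gap in the fit.

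**Figure D3:**
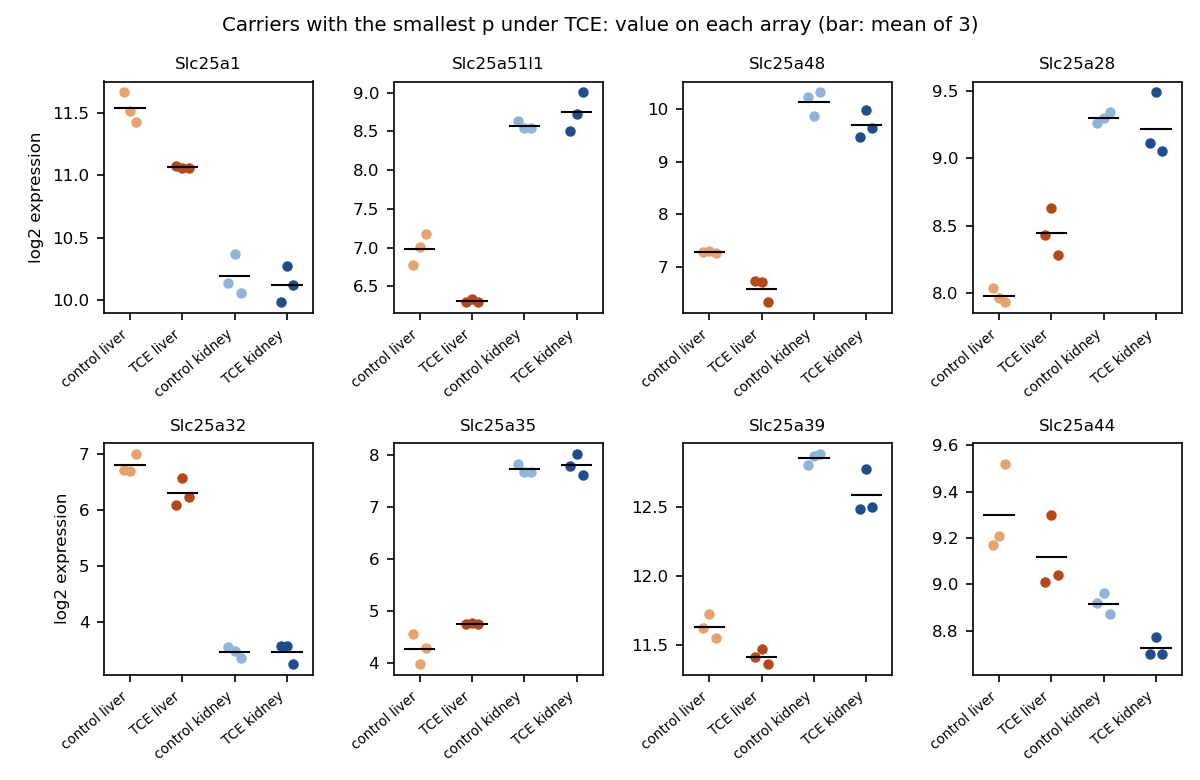
Log2 expression (y axis) on each of the 12 arrays for 8 carriers among those with the smallest p under TCE, in control liver, TCE liver, control kidney and TCE kidney (x axis). Points are arrays and bars the mean of 3. The 3 TCE livers lie below the 3 control livers for Slc25a1, Slc25a51l1, Slc25a48, Slc25a32 and Slc25a39 and above them for Slc25a28 and Slc25a35, and none of these differences passed an adjusted p of 0.05.

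By role, the 7 tested carboxylate and uncoupling-like carriers had a median of -0.26, with 5 below 0, and included the oxoglutarate carrier Slc25a11 (-0.26 ± 0.1, groups apart, and -0.03 ± 0.26 with the Gapdh gap in the fit). The 7 amino acid and glutathione carriers had a median of -0.18. Slc25a39 read 11.41, 11.47 and 11.36 in TCE and 11.62, 11.72 and 11.55 in control livers (-0.22 ± 0.07), beside the lower erythroid markers of these livers, whose part was not tested. The erythroid mitoferrin Slc25a37 had 0.08 ± 0.33 and the glycine carrier Slc25a38 0.3 ± 0.17. The aspartate-glutamate carriers had 0.13 ± 0.08 (Slc25a13) and -0.24 ± 0.28 (Slc25a12), and the second probe set of Slc25a13 gave -0.44 ± 0.14, so the sign for Slc25a13 differs between probe sets.

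Carriers of energy exchange and fatty acids in liver had small differences. The phosphate carrier Slc25a3 read 11.83, 12.24 and 12.17 in TCE and 12.32, 12.43 and 12.39 in control livers (-0.3 ± 0.12, groups apart), and had 0.04 ± 0.29 with the Gapdh gap in the fit. Slc25a4 had 0.39 ± 0.16 and Slc25a5 -0.16 ± 0.1, and both pairs of groups overlapped. Slc25a20 read 10.19, 10.35 and 10.35 in TCE and 10.37, 10.47 and 10.61 in control livers, just apart at -0.18 ± 0.09, and -0.06 ± 0.25 with that gap in the fit. Slc25a30 had -0.96 ± 0.9, which was -0.01 ± 0.5 without liver control replicate 2.

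In renal cortex no member passed either, and the smallest p-values belonged to Slc25a44, Slc25a39, Slc25a42 and Slc25a48, all with lower values in TCE kidneys. Limma called 0 of 34 members, as it called 0.0% of 10563 genes. At an unadjusted p under 0.05 there were 4 of 34 (11.8%), beside 14.8% of all genes, and all 4 were lower (7.26% of all genes were lower at that p and 7.56% higher). TCE and control kidneys did not overlap for 5 of 34 (14.7%), beside 20.1% of all genes. These shares are near or below those of all genes. The members' median was 0.05, with differences from -0.51 to 0.41, and 15 of 34 were below 0, beside 50.1% of all genes.

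Slc25a44, which carries branched-chain amino acids, had the smallest p. It read 8.7, 8.77 and 8.7 in TCE and 8.92, 8.96 and 8.87 in control kidneys, all TCE kidneys lower, by -0.2 ± 0.06 (limma adjusted p = 0.264). A second probe set gave -0.43 ± 0.1. The glutathione carrier Slc25a39 read 12.49, 12.78 and 12.5 in TCE and 12.81, 12.87 and 12.89 in control kidneys, also apart, at -0.27 ± 0.1 (adjusted p = 0.315). With the Gapdh gap in the fit Slc25a44 had -0.17 ± 0.1 and Slc25a39 -0.07 ± 0.12.

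Slc25a42 read 6.56, 7.27 and 6.71 in TCE and 7.48, 7.23 and 7.37 in control kidneys, where the groups overlap (-0.51 ± 0.2, limma adjusted p = 0.327). Slc25a48 overlapped too, at 9.46, 9.98 and 9.63 against 10.23, 9.87 and 10.32 (-0.45 ± 0.18, adjusted p = 0.337). With that gap in the fit the differences were -0.01 ± 0.18 for Slc25a42 and 0.0 ± 0.16 for Slc25a48. Slc25a23 was lower (11.13, 11.43 and 11.2 against 11.43, 11.5 and 11.46, -0.21 ± 0.09, adjusted p = 0.365). The glutamate carrier Slc25a22 was the reverse, at 6.96, 6.99 and 7.14 in TCE and 6.73, 6.9 and 6.24 in control kidneys (0.41 ± 0.18, adjusted p = 0.373). In that fit Slc25a23 had -0.06 ± 0.13 and Slc25a22 0.15 ± 0.28.

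Among the other kidney carriers, Slc25a16 had 0.37 ± 0.19, Slc25a34 -0.32 ± 0.29, Slc25a29 -0.24 ± 0.17, Slc25a25 -0.23 ± 0.46 and Slc25a10 0.22 ± 0.11, all with overlapping groups. Slc25a46 had 0.12 ± 0.06 with the groups apart. Slc25a1 had -0.06 ± 0.12, Slc25a20 0.05 ± 0.05, Slc25a32 0.0 ± 0.11, Slc25a13 0.16 ± 0.1 and Slc25a12 0.08 ± 0.09. Slc25a4 had -0.03 ± 0.07 and Slc25a5 -0.02 ± 0.06.

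The difference of the TCE effects, liver minus kidney, was tested over all 12 arrays. Limma called 0 of 34 members, beside 0.535% of 10652 genes (57). At an unadjusted p under 0.05 there were 8 of 34 (23.5%), beside 17.5% of all genes, and 20 of 34 were below 0, beside 44.2%. Slc25a51l1 came nearest, with -0.85 ± 0.19 (adjusted p = 0.0832): lower in TCE livers and 0.17 ± 0.13 in kidneys. Slc25a28 had 0.55 ± 0.18, Slc25a11 -0.39 ± 0.14, Slc25a3 -0.5 ± 0.18, Slc25a1 -0.41 ± 0.15 and Slc25a32 -0.5 ± 0.2, with adjusted p from 0.164 to 0.248. For Slc25a28 the sign turned in the fit with the Gapdh gap (-0.06 ± 0.3).

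**Figure D4:**
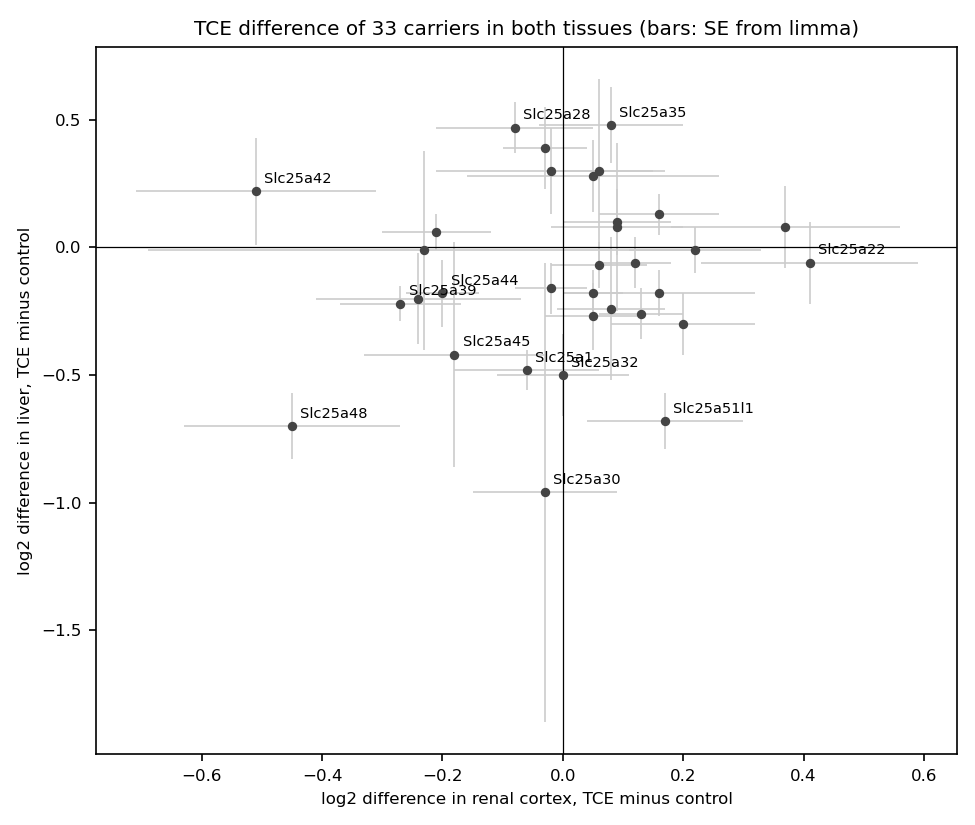
Log2 difference between TCE and control in liver (y axis) against that in renal cortex (x axis) for the 33 carriers tested in both, with limma's SE as bars. Slc25a48 lies below 0 in both tissues (-0.7 and -0.45), Slc25a1 and Slc25a32 below 0 in liver and near 0 in kidney, and no point passed an adjusted p of 0.05 in either tissue.

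A second probe set of Slc25a46, an outer membrane protein needed for mitochondrial shape, had TCE differences of opposite sign in the tissues. It read 7.04, 7.05 and 7.37 in TCE and 7.74, 7.99 and 8.5 in control livers, and 7.7, 7.38 and 7.9 in TCE and 6.72, 6.89 and 6.95 in control kidneys. TCE livers were all lower (-0.92 ± 0.22) and TCE kidneys all higher (0.8 ± 0.15). The difference of effects was -1.73 ± 0.28 (limma adjusted p = 0.0254 over 18625 probe sets). The brightest probe set, which represents the gene, had -0.06 ± 0.1 in liver and 0.12 ± 0.06 in kidney. This probe set was singled out after its values were seen.

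**Figure D5:**
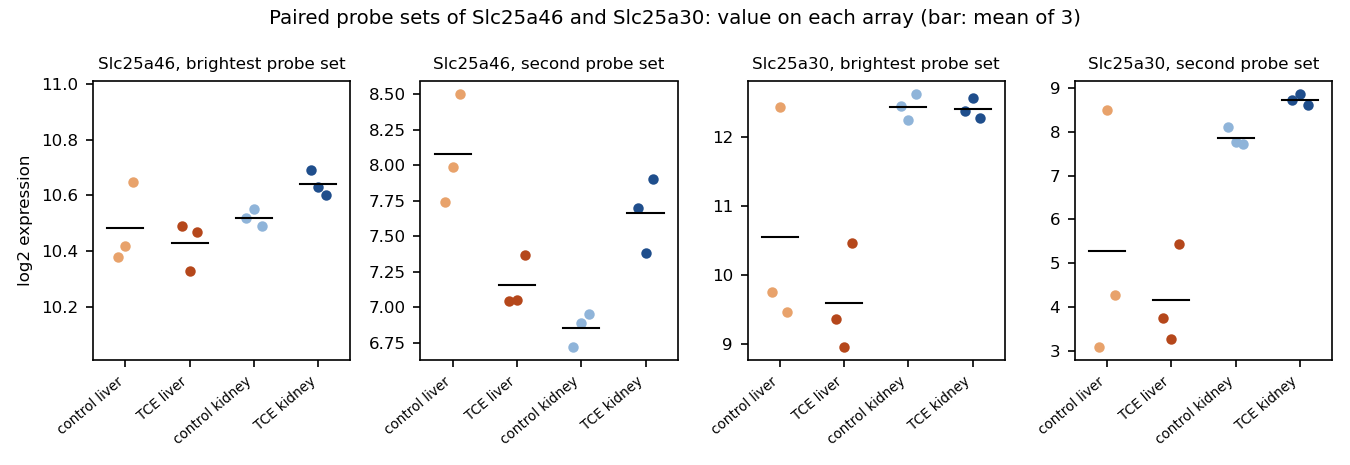
Log2 expression (y axis) on each of the 12 arrays for both probe sets of Slc25a46 and of Slc25a30 in control liver, TCE liver, control kidney and TCE kidney (x axis). Points are arrays and bars the mean of 3. The second Slc25a46 probe set lies lower in TCE than control livers and higher in TCE than control kidneys, while the brightest stays within 10.33 and 10.69, and liver control replicate 2 stands apart at 12.44 and 8.49 on both Slc25a30 probe sets.

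Genes that work beside the carriers were described for comparison. Of the family members under other symbols (Ucp1, Ucp2, Ucp3, Mtch1 and Mtch2), 3 were tested. Mtch1 was 3.18-fold lower in control liver than kidney and Mtch2, an insertase of the outer membrane, 2.34-fold higher. For the counts that follow, 29.7% of all genes were called higher in control liver than in control kidney and 38.9% lower. Of 21 tested genes of other inner membrane transport, 6 were called higher in control liver and 13 lower. The serine carrier relatives Sfxn3 and Sfxn1 were 9.67-fold and 3.46-fold lower in liver. Of 19 outer membrane channel and carrier import genes, 6 were called higher and 8 lower, with the porin Vdac1 3.91-fold lower in liver. Of 25 enzymes that use carried substrates, 14 were called higher and 6 lower. Among those with the smallest p, Otc (11.13 ± 0.12) and Nadk2 (4.49 ± 0.15) were higher in liver. Otc lay near the lowest value in control kidneys (mean 2.26). Idh2 was 7.07-fold lower in liver. Citrate synthase (Cs), often read as a mark of mitochondrial content, was 4.57-fold lower (-2.19 ± 0.08). The part of mitochondrial content in the carriers' differences was not tested.

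Under TCE these lists held 0 called genes in liver and 0 in kidney, with limma, and 1 in the difference of effects. In liver 3 of 25 enzymes, 3 of 21 inner membrane transport genes, 3 of 19 import genes and 0 of 3 other family members were at an unadjusted p under 0.05, beside 14.7% of all genes. In kidney these counts were 5 of 23, 5 of 21, 4 of 19 and 1 of 3, beside 14.8% of all genes. In TCE livers the cytosolic malate dehydrogenase Mdh1 had -0.32 ± 0.1. Among the inner membrane genes, of which 13 of 21 were above 0 in liver, Sfxn3 had 0.34 ± 0.09, Sfxn4 0.53 ± 0.18, Letm1 -0.23 ± 0.08 and the pyruvate carrier subunit Mpc2 -0.18 ± 0.08. The called gene was Me1, which turns malate carried out of mitochondria into pyruvate and NADPH, with a difference of effects of -1.18 ± 0.16 (limma adjusted p = 0.0194). Its TCE difference in liver was -1.22 ± 0.14 (limma adjusted p = 0.113), and its kidney means were 12.24 with TCE and 12.28 in controls. In the difference of effects no gene was called with the Gapdh gap in the fit or without TCE kidney replicate 1.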

How the data were processed

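Total RNA of liver and renal cortex was hybridised to GeneChip Rat Genome arrays. The authors' deposited log2 values (31099 probe sets by 12 arrays) were made with affy and limma, per the submitters' processing notes. How background, normalization and probe summary were handled is not given in the sources used here, and the log2 scale was inferred from the value range. Names came from GEO's platform annotation, with symbols of all 39 members unchanged in RefSeq's GRCr8 table. Each gene was its brightest probe set, kept if its mean exceeded the 40th percentile for the arrays compared (2.447 for liver, 2.43 for kidney, 2.549 between tissues of control and 2.538 of TCE rats), and fitted with limma 3.58.1 in R 4.3.3 (lmFit, eBayes, two-sided, Benjamini-Hochberg over all genes, threshold 0.05). SE is limma's moderated standard error.

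Members, lists, alternatives and the naming rule were chosen with earlier results of these data known. The naming rule took the 6 members with the smallest p of each TCE comparison, the 8 largest tissue calls in each direction and preset members. Most of them are given with values of single arrays, but Slc25a11, Slc25a16 and Slc25a29 only with a difference or fold. Others are named with their difference, and the closest relatives are set side by side. Alternatives covered filters, probe set choice, scaling, variance models, a replicate block, all 12 arrays, the Gapdh gap as a covariate and each array left out. Whether replicate numbers pair the liver and kidney arrays of a rat is unsettled. In deviations from group means, same-numbered liver and kidney arrays correlated at 0.06, 0.05 and 0.08 in control rats. Arrays of different numbers ran from -0.06 to -0.01 there. In TCE rats same-numbered arrays had 0.01, -0.01 and 0.06, and those of different numbers -0.07 to 0.05. In simulated data with independent normal noise, 200 genes were raised by 1 log2 unit. Of these, 59% were recovered in liver (10552 genes) and 71.5% in kidney (10563 genes). Recovery depends on how many genes change, so these shares are not the power to find a change in the carriers. The number of arrays limits the precision, and p-values measure the spread between these rats only. Both tissues came from the same 6 rats, though no label says which liver and kidney belong together.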

Additional observations from a re-analysis of the deposited data

Results flagged for a closer look

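The second probe set of Slc25a46 was marked because its TCE effect differed between liver and kidney in a test of the difference itself, by -1.73 ± 0.28 log2 units (limma adjusted p = 0.0254 over 18625 probe sets). The value ran from -1.89 to -1.52 with any 1 array left out, and the adjusted p from 0.0182 to 0.0704. It was above 0.05 without TCE kidney replicate 1 (0.0688) or 3 (0.0583), TCE liver replicate 1 (0.0642) or 2 (0.0621), or control kidney replicate 1 (0.0704) or 3 (0.0621), and when dim probe sets were kept (0.0557). In a fit with the Gapdh gap the difference was -1 ± 0.54 (adjusted p = 0.935). These alternatives were chosen after seeing the data.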

How the results depend on the processing

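No member was called under TCE in liver, in kidney or in the difference of effects, under any alternative but 1: all 12 arrays in 1 fit called 1 member in liver. This count leaves out further single probe sets, such as the second of Slc25a46, which was called in the difference of effects (limma adjusted p = 0.0254). Genes called in liver were 17 with no filter, 182 with all 12 arrays and 0 to 1 with each array left out. In kidney 20 genes were called from all 12 arrays, 2 without a filter, and 1 each under robust variances with a trend and under the stricter filter. In the difference of effects they were 57, against 123 with array weights, 9 with the replicate block, 0 with the Gapdh gap covariate and 0 to 108 with each array left out. The replicate block (numbers not known to pair the arrays) called 24 members in the control tissue comparison and 27 in TCE rats. Over all genes it called 6993 of 10654 and 6901 of 10642. In control rats the mean of probe sets gave Slc25a23 0.94 and Slc25a46 0.59, quantile normalization Slc25a14 0.36, and median centring Slc25a14 0.37, Slc25a23 0.36 and Slc25a46 0.37, all turned from below 0. In TCE rats Slc25a33 turned with quantile normalization (0.02) and centring (0.10), and Slc25a14 (0.36) and Slc25a21 (0.32) with centring; the cause was not tested. The other tissue counts of members called stayed within 1.5 times the values given. Values near a probe set's lowest level and 3 arrays a group limit what can be called.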

Other observations

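Liver control replicate 2 stood 2.68 log2 units above the higher of the other 2 control livers at Slc25a30, the 2nd largest such gap among 10552 genes tested in liver. Gaps over 2 log2 units were counted for 3 genes on that array, 24 on liver control replicate 1 and 4 on liver control replicate 3. At the second Slc25a30 probe set the gap was 4.21.

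Probe sets of 1 gene did not always point the same way. In the TCE comparison of liver 4 of 10 members with several tested probe sets had opposite signs among them, in kidney 2 of 9, and in control liver against control kidney 3 of 9. At the second Slc25a30 probe set TCE kidneys read 8.73, 8.86 and 8.62 and control kidneys 8.11, 7.77 and 7.72, a difference of 0.87 ± 0.13 (limma adjusted p = 0.179 over 18625 probe sets), while the brightest probe set of Slc25a30 had -0.03 ± 0.12.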
